A study of Arabidopsis thaliana with 18 samples.

Results

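Mock treated rosette leaves of an Arabidopsis thaliana mutant without 4 TGA transcription factors were compared with mock treated leaves of the wild type Col0. The comparison takes the 3 arrays titled 4tga, mock treated and the 3 titled Col0, mock treated, 6 of the 18 arrays of the series, and uses no measured value to choose them. The mutant, written 4tga here, carries tga2, tga3, tga5 and tga6 together (the source name is tga2tga3tga5tga6 mutant). Col0 is the wild type accession. All plants stood on soil in long days and were 4 weeks old, and leaf RNA was hybridised to Affymetrix ATH1 arrays, 1 per sample. Mock treatment was a spray with an equal volume of the solvent DMSO. Beside these groups stand 4tga and Col0 leaves sprayed with the herbicide safeners isoxadifen (7.2 mM) and mefenpyr (5 mM). Leaves of sid2-2 were used as well, both mock treated and sprayed with the same safeners. Each of these groups has 3 arrays. The sid2-2 mutant lacks isochorismate synthase 1, the main enzyme of salicylic acid synthesis after infection. The labels give an ecotype for Col0 alone. They call the arrays of a group biological replicates and do not say whether a sample was 1 plant or a pool, so the p-values measure the spread between these samples. In whole leaves, fewer cells of a type and less RNA per cell cannot be told apart.

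TGA factors are basic leucine zipper proteins that bind the DNA motif TGACG. TGA2, TGA5 and TGA6 form a group with overlapping roles, and TGA3 binds the same partner, the salicylic acid receptor NPR1, through which salicylic acid switches defence genes on. The same factors are also known from detoxification of foreign compounds, where TGA2 recruits the GRAS protein SCL14, and from defence driven by jasmonate and ethylene, where PDF1.2 is the usual marker. The comparison in mock treated leaves asks how leaf transcripts differ without these factors when neither pathogen nor safener is added.

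Per array, 15788, 15774 and 15935 probe sets had a listed value in 4tga mock leaves and 15234, 15211 and 15340 in Col0 mock leaves. The remaining cells of the table were blank. Values are fluorescence intensities on a linear scale with a median of about 200 per array. Over the 13433 probe sets listed on all 18 arrays, arrays of 4tga correlated with each other at 0.990 to 0.992 (Pearson's r of log2 values across probe sets), Col0 arrays at 0.984 to 0.994, and arrays of 4tga with arrays of Col0 at 0.974 to 0.979. Over those same probe sets the array medians were 246 to 253 in 4tga and 236 to 240 in Col0. The probe sets of the 4 mutated genes have no gene name in the annotation used and were not analysed here, so the genotype labels were not checked on them. Of the markers of other organs and cell types, 4 had a tested value (2 of roots, 1 of guard cells, 1 of phloem) and 0 of them passed the test. The root beta-glucosidase PYK10 averaged 449 ± 95.6 in 4tga and 344 ± 26.3 in Col0 (SD, n = 3 each; adjusted p = 0.212), the guard cell factor FMA 89.7 ± 5.10 and 80.1 ± 8.16 (adjusted p = 0.426). All 7 tested housekeeping genes and all 3 tested genes of the photosynthetic antenna, LHCB4.1, LHCB4.2 and LHCB4.3, missed the threshold, with median log2 differences of 0.04 and 0.00.

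Many probe sets differed a little between 4tga and Col0 and few differed a lot. Of 15018 probe sets tested, 7.81% passed an adjusted p under 0.05: 907 (6.04%) were higher in 4tga and 266 (1.77%) were lower. Changes of at least 2-fold were found for 114 higher (0.759%) and 53 lower probe sets (0.353%). Higher calls made up 77.3% of all calls, but this split moves with the scaling. When each array was centred on the probe sets listed on all 18 arrays, 653 were higher (4.35%) and 435 lower (2.9%), so that 60.0% of the calls were higher. Centring moved the median log2 difference over all probe sets by −0.07, to 0.01. Leaving out 1 array also moved the counts by over 1.5 times: the higher count was 484 without 4tga replicate 3, 514 without Col0 replicate 2 and 598 without Col0 replicate 3, and the lower count 157 without 4tga replicate 2 and 148 without Col0 replicate 2. On 14350 probe sets listed on all 6 arrays, 30% had groups that did not overlap. Among 8090 genes with a name and a test, 417 were higher and 146 lower (6.96% called), and it is these genes that are described below.

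The gene with the largest loss, AT4G13180, and 4 others belong to xenobiotic detoxification. AT4G13180 encodes a short-chain dehydrogenase/reductase and had intensities of 45.0, 50.2 and 50.8 in 4tga, against 675, 488 and 639 in Col0. The highest 4tga array lay far below the lowest Col0 array, and the groups did not overlap. The mean was 48.7 ± 3.17 in 4tga and 600.4 ± 99.4 in Col0 (SD, n = 3 each), which is a log2 difference of −3.61 (SE 0.14, adjusted p = 1.67e-12) or 12.2-fold lower. AER, an alkenal reductase that removes reactive aldehydes, was blank, 71.4 and 77.5 in 4tga, against 320, 276 and 262 in Col0. Both listed 4tga values lay below all Col0 values (log2 −1.94, SE 0.15, adjusted p = 2.87e-07, with n = 2 in 4tga). UGT73B5, a glucosyltransferase, had 38.7, 38.0 and 46.5 in 4tga and 94.7, 111 and 93.8 in Col0. Its groups were apart as well, by a log2 difference of −1.28 (adjusted p = 1.66e-05). AT4G01870, which encodes a TolB-related protein, had 501, 355 and 540 in 4tga and 1384, 1768 and 1400 in Col0. It fell by 1.72 on the log2 scale (SE 0.17, adjusted p = 1.21e-06), again with no overlap.

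These 4 genes belong to a list of genes known to need SCL14 and TGA factors, of which the annotation names 10 members and 8 could be tested. Over all probe sets tested, 1.77% were called lower. Of the 8, 5 were lower in 4tga and 0 higher, and their median log2 difference was −1.09, against 0.07 over all probe sets. The fifth was AT5G61820, a Nod19-like protein, at 862 ± 102 in 4tga and 1597 ± 99.7 in Col0 (log2 −0.89, adjusted p = 1.94e-05), and it is named because it completes the count. AT3G04000 and AT1G09500, both reductases, did not pass the test here: AT3G04000 averaged 138 in 4tga and 170.4 in Col0 (adjusted p = 0.248), and AT1G09500 53.2 and 67.8 (adjusted p = 0.319). UGT73B4 could not be tested, since it was listed on 0 arrays of 4tga and on 1 of Col0, at 42.8. GSTU25 could not be tested either, since it was listed on every Col0 mock array and blank on every 4tga array. The list was written from knowledge of earlier work on these mutants, so its direction is not independent of the genotype.

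Of 3 tested genes of the salicylic acid response, 2 were lower, where 1.77% of all probe sets were called lower. UGT76B1, which glucosylates salicylic acid and isoleucic acid, had intensities of 109, 70.8 and 78.6 in 4tga and of 630, 614 and 565 in Col0. The highest 4tga array was far under the lowest Col0 array. The mean was 86.2 ± 20.2 in 4tga and 603 ± 34.3 in Col0, a log2 difference of −2.83 (SE 0.20, adjusted p = 9.91e-09) or 7.11-fold lower. GRX480, a glutaredoxin that is induced by salicylic acid and binds TGA factors, had 70.9, 62.1 and 67.6 in 4tga and 245, 250 and 197 in Col0. It was 3.44-fold lower (log2 −1.78, SE 0.15, adjusted p = 2.73e-07) and its groups did not overlap. SAG101, a partner of the immune regulator EDS1, was the third tested member of this list of 3 and averaged 353 ± 17.4 in 4tga and 272 ± 45.5 in Col0 (adjusted p = 0.09). The list as a whole thus had 2 lower and 0 higher calls, with a median log2 difference of −1.78.

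Of the WRKY factors, many of which act in the same response, 1 of 5 was called, beside 6.96% of all named genes. WRKY53 averaged 398 in 4tga and 536 in Col0 (log2 −0.42, adjusted p = 0.0373), but lost its call with only the 6 arrays compared and without any 1 of 5 of them, Col0 replicate 3 being the exception, and its adjusted p then reached 0.150.

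Several transporters and enzymes outside those lists fell as far. OCT5, a member of the organic cation and carnitine transporter family, had 36.9, 30.0 and 35.9 in 4tga and 219, 203 and 214 in Col0. The spread within each group was small beside the gap between them, and OCT5 was 6.22-fold lower (log2 −2.64, SE 0.11, adjusted p = 1.87e-11). AT1G19960 averaged 241 ± 9.99 in 4tga and 1124 ± 73.3 in Col0 (log2 −2.22). ATPMEPCRB, a pectin methylesterase of the cell wall, averaged 44.9 ± 6.17 and 189.6 ± 13.4 (log2 −2.08), and AT3G28510, an AAA-type ATPase, 22.8 ± 5.61 and 92.4 ± 32.2, which is 3.99-fold lower. AT3G13610, the feruloyl-CoA hydroxylase F6'H1 that makes the coumarin scopoletin, averaged 232 ± 50.6 in 4tga and 607 ± 105 in Col0 (log2 −1.40, SE 0.24, adjusted p = 0.000929). AT4G30450, the glucosyltransferase UGT73D1 and AT5G05960, a member of the lipid transfer protein family, fell by 1.93, 1.74 and 1.64 on the log2 scale. The 12 largest losses were taken among genes listed on all 6 arrays, which leaves out EXLB1 and AER, each blank on 1 array of 4tga. In all of the 12 the groups were apart, as the rule that chose them requires.

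**Figure D1:**
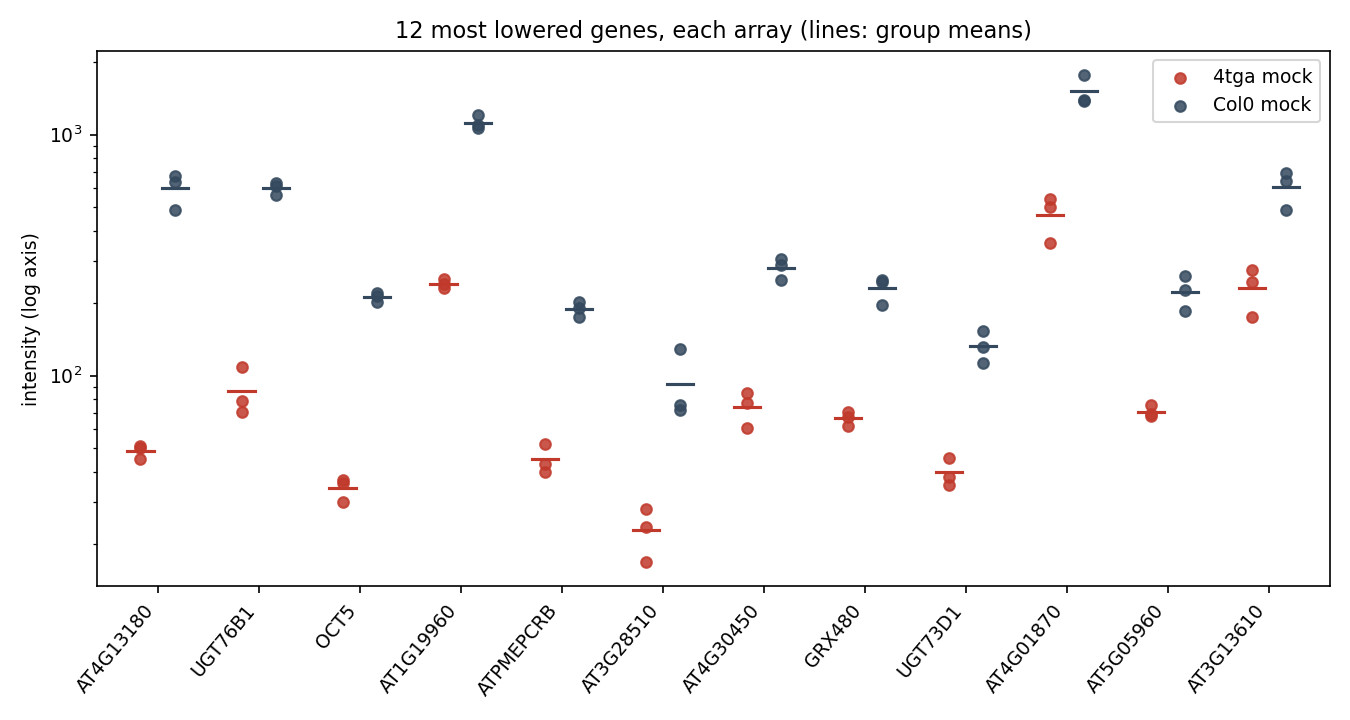
Intensity (logarithmic axis) of the 12 named genes with the largest fall in 4tga, with 1 point per array, 4tga in red to the left of Col0 in dark grey, and a line at each group mean. In each of the 12 the highest 4tga array lies below the lowest Col0 array, with AT4G13180 at 45.0 to 50.8 in 4tga and 488 to 675 in Col0.

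Cell wall loosening proteins gave a mixed picture with 1 very large loss. The expansin-like gene EXLB1 had 44.1, blank and 40.0 in 4tga and 327, 443 and 518 in Col0. It was 10.0-fold lower in 4tga (log2 −3.33, SE 0.15, adjusted p = 2.82e-11, n = 2 in 4tga). Of 12 tested xyloglucan hydrolases and expansins, 3 were lower and 1 higher, and the median log2 difference of 0.08 was close to that of all probe sets. These calls stand beside 6.96% over all named genes. EXLA1 averaged 127 in 4tga and 188 in Col0 (log2 −0.54), EXPA16 73.3 and 143 (log2 −1.01) and EXPB3 127 and 83.8 (log2 0.59). The calls of EXLA1, EXPA16 and EXPB3 did not outlast the loss of single arrays: EXLA1 lost its call without Col0 replicate 2 or 4tga replicate 1 or 2, EXPA16 with only the 6 arrays compared and without Col0 replicate 2 or 3 or 4tga replicate 3, and EXPB3 without Col0 replicate 2 or 3 or 4tga replicate 1 or 3, with adjusted p up to 0.114, 0.167 and 0.0793.

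Defence genes of the jasmonate and ethylene branch were higher in mock treated 4tga leaves. PDF1.2, a plant defensin and the standard readout of that branch, had intensities of 2142, 2918 and 2963 in 4tga and of 258, 226 and 277 in Col0. All 4tga arrays were far above all Col0 arrays. The mean was 2674 ± 462 in 4tga and 254 ± 25.6 in Col0, which is 10.5-fold higher (log2 3.39, SE 0.28, adjusted p = 1.61e-07). THI2.1, a thionin induced by jasmonate, had 259, 222 and 357 in 4tga and 67.2, 33.4 and blank in Col0. It was 5.78-fold higher (log2 2.53, SE 0.28, adjusted p = 1.92e-05, n = 2 in Col0). AT1G54020, a GDSL-type lipase, had 309, 196 and 341 in 4tga and 33.8, 40.1 and 37.5 in Col0. It was 7.41-fold higher (log2 2.89, SE 0.24, adjusted p = 2.87e-07), and its groups did not overlap.

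The jasmonate and ethylene list was chosen with earlier results of these data known, so its direction is not independent of them. Of all probe sets tested, 6.04% were called higher. Of the 7 named members of the list, 6 could be tested, and 5 were higher and 0 lower. Their median log2 difference was 2.33, against 0.07 over all probe sets. The other two calls were the defensin PDF1.2b, at 1412 ± 162 in 4tga and 326 ± 68.9 in Col0 (log2 2.13), whose probe set may share signal with PDF1.2, and the jacalin-related lectin JAL23, at 578 ± 158 and 156 ± 27.5 (log2 1.86). JMT, which makes methyl jasmonate, averaged 72.0 ± 5.42 in 4tga and 50.3 ± 15.2 in Col0 and missed the threshold (log2 0.56, adjusted p = 0.0936). Among the pathogenesis-related proteins named in the annotation, 1 of 2 was called: OSM34, an osmotin, averaged 285 ± 88.1 in 4tga and 113 ± 13.1 in Col0 (log2 1.29, adjusted p = 0.000802), whereas the chitinase CHI averaged 4022 and 3293 (adjusted p = 0.156).

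The gene with the largest rise was AT2G20870, with 273, 268 and 390 in 4tga and 36.8, 24.5 and 26.6 in Col0. It was 10.6-fold higher in 4tga (log2 3.40, SE 0.39, adjusted p = 1.36e-05). AT3G28220, a TRAF-domain protein, averaged 506 ± 69.8 in 4tga and 127 ± 37.9 in Col0 (log2 2.03). AT3G23550, a transporter of the MATE family, averaged 1077 ± 194 and 309 ± 42.2 (log2 1.80). The rises of AT4G29700, the acidic ribosomal protein gene AT3G28500, the glutaredoxin family gene AT5G11930, AT1G22060 and the thaumatin family gene AT5G40020 lay between 1.51 and 1.72 on the log2 scale. The 12 were chosen to have every 4tga array above every Col0 array.

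**Figure D2:**
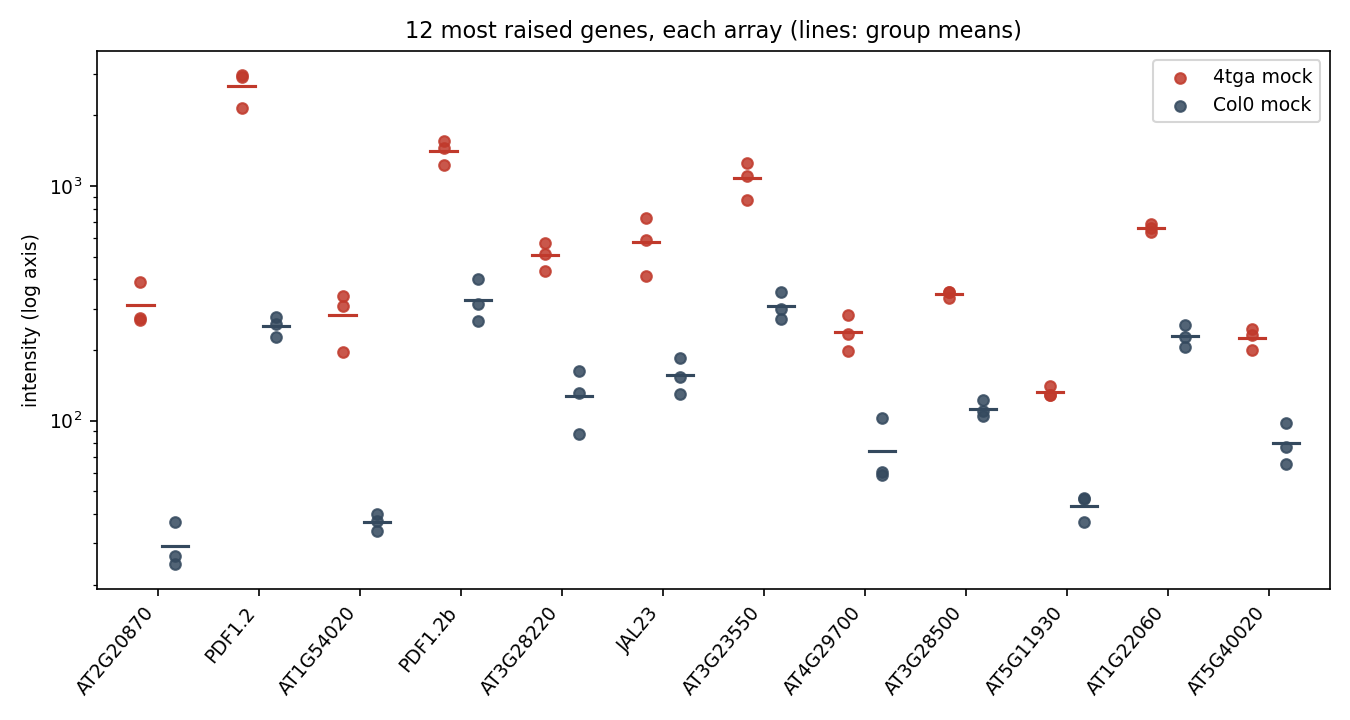
Intensity (logarithmic axis) of the 12 named genes with the largest rise in 4tga, with 1 point per array, 4tga in red to the left of Col0 in dark grey, and a line at each group mean. The 12 genes are apart by group, and the 4tga arrays of PDF1.2 sit at 2142 to 2963, those of Col0 at 226 to 277.

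Phenylpropanoid pigment genes and a few metabolic genes were moderately higher. Over all named genes, 6.96% were called. Both tested genes of flavonoid and anthocyanin synthesis were called: DFR, the reductase that leads to anthocyanins, had 240.4, 213 and 268 in 4tga and 122, 62.3 and 92.2 in Col0 (log2 1.43, SE 0.29, adjusted p = 0.00428). The flavonoid glucosyltransferase UGT78D2 averaged 358 in 4tga and 202 in Col0 (log2 0.84, adjusted p = 0.0126), a call lost without Col0 replicate 2 or 4tga replicate 3 (adjusted p up to 0.0867). BCAT4, an aminotransferase of methionine-derived glucosinolate synthesis, averaged 3027 in 4tga and 1930 in Col0 (log2 0.67, adjusted p = 0.00924), and without the same 2 arrays its adjusted p reached 0.0675. In these 3 genes every 4tga array was above every Col0 array.

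The larger enzyme families did not move together. Their counts stand beside 6.96% called over all named genes. Among 28 tested glycosyltransferases on the UGT family list, 5 were lower and 2 higher, 7 and 2 after centring, and the median log2 difference was −0.06. Members were matched by gene symbol. The list therefore does not hold the auxin glucosyltransferase gene IAGLU, which was also called lower in mock leaves. The lower ones on the list were UGT76B1, UGT73D1, UGT73B5, UGT74D1 and UGT88A1. The last 2 fall outside the rule for naming and are given because the count is 5: UGT74D1 averaged 71.9 in 4tga and 153 in Col0 (log2 −1.09, adjusted p = 0.00122), and UGT88A1 1092 and 1395 (log2 −0.35, adjusted p = 0.0311). UGT88A1 lost its call without any 1 of the 6 arrays (adjusted p up to 0.113). The higher ones were the flavonoid glycosyltransferases UGT78D1 (log2 0.60) and UGT78D2. Of 12 cytochrome P450 genes, 3 were higher and 0 lower, all of the CYP71B subfamily: CYP71B22 averaged 219.7 in 4tga and 130.1 in Col0 (log2 0.76, adjusted p = 7.08e-05), CYP71B26 612 and 434 (log2 0.50) and CYP71B36 64.9 and 43.6 (log2 0.57, lost without Col0 replicate 2 or 3 or 4tga replicate 2 or 3). None of 7 tested tau and 1 phi glutathione transferases was called, and GSTU20, the brightest of the tau class named here, averaged 2282 in 4tga and 1804 in Col0 (adjusted p = 0.164). The tested genes leave out the tau class gene GSTU25 and the glucosyltransferase gene UGT73B1. Both were listed on every Col0 mock array and blank on every 4tga mock array, and their levels are given below.

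Stress and redox lists were small and held 0 to 2 calls each, so their shares say little beside the 6.96% called over all named genes. The list of the plant-specific glutaredoxin class that binds TGA factors had 10 tested genes. Of these, 1 was lower and 1 higher, with a median log2 difference of 0.19. This list does not hold GRX480, which was called lower, or the glutaredoxin family gene AT5G11930, which was called higher, as given above. AT3G62930 averaged 38.0 in 4tga and 54.0 in Col0 (log2 −0.51, adjusted p = 0.0389), and AT2G47880 355 and 224 (log2 0.67, adjusted p = 0.0449). Both were fragile: AT3G62930 lost its call with quantile normalization, with the replicate block and without any 1 of 5 arrays, 4tga replicate 3 being the exception (adjusted p up to 0.138), and AT2G47880 lost it after centring and without any 1 of 5 arrays, Col0 replicate 1 being the exception (adjusted p up to 0.174). Of 4 heat shock genes 1 was higher, AT5G51440 (log2 0.68, adjusted p = 0.0223), which lost its call without Col0 replicate 2 or 4tga replicate 1 (up to 0.148). Of 4 genes of glutathione and sulfate assimilation 1 was higher, APS3 (log2 0.44, adjusted p = 0.0185), which lost its call after centring, with only the 6 arrays compared and without Col0 replicate 2 or 3 or 4tga replicate 2 (up to 0.114). None of 4 cold response genes passed, though their median log2 difference was 0.43 and COR15A came close, at 277 ± 74.4 in 4tga and 165 ± 24.4 in Col0 (log2 0.72, adjusted p = 0.0503). Both tested lipid transfer genes of the AZI1 and EARLI1 group, which act in systemic immunity, were higher. AT4G12500 had 315, 147 and 307 in 4tga and averaged 127 ± 24.1 in Col0, where the highest array was at 149, so 1 array of 4tga overlapped with Col0 (log2 0.95, adjusted p = 0.024), and AT4G12490 averaged 843 ± 266 and 434 ± 84.4 (log2 0.93, adjusted p = 0.0262). AT4G12500 lost its call with only the 6 arrays compared and without Col0 replicate 1 or 3 or 4tga replicate 1 or 3, and AT4G12490 without Col0 replicate 1 or 3 or 4tga replicate 3, with adjusted p up to 0.131 and 0.159. Of 11 BGLU beta-glucosidases 1 was higher, BGLU46 (39.6 ± 9.79 in 4tga and 19.0 ± 2.04 in Col0, log2 1.03, adjusted p = 0.00131). Lists of hydrogen peroxide removal, iron, clock, cell cycle, auxin response and autophagy had 1 to 4 tested genes each and 0 calls, by limma.

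Some probe sets were listed on all arrays of 1 group and on none of the other, so no fold change exists for them. Of 22746 probe sets, 135 were listed in 4tga alone and 26 in Col0 alone. Arrays of 4tga mock leaves listed more probe sets in general, 15774 to 15935 against 15211 to 15340 in Col0. How far this sets the counts of 135 and 26 apart was not tested. Those seen in 4tga alone were dim, with a median level of 36.8. AT3G28270 was the brightest named one, at 121, 174 and 199 in 4tga, and was also listed on all sid2-2 mock arrays, at a mean of 211. The 4-coumarate ligase-like gene 4CL8 averaged 87.8 ± 13.8 in 4tga. Those seen in Col0 alone had a median level of 52.7. Among them GSTU25, a tau glutathione transferase and a member of the xenobiotic list, had 151, 219 and 124 in Col0 and was blank on every 4tga array, mock or safener, while it averaged 435 ± 257 in sid2-2 mock leaves. The subtilase gene ATSBT5.2 had 168, 187 and 144 in Col0, the urease gene URE averaged 134 ± 14.0 and the glucosyltransferase UGT73B1 112 ± 9.35. The brightest probe set seen in Col0 alone, at a mean of 1034, has no gene name in the annotation.

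The same genotypes sprayed with safener give a second measurement of the mutation on 6 other arrays. There, 1309 of 14859 probe sets were higher in 4tga (8.81%) and 628 lower (4.23%), 13% in all. Of the 907 probe sets higher in mock leaves, 878 were tested under safener and 518 were called higher again (59.0%), 3 were called lower, and 825 had the same sign. Of the 266 lower in mock leaves, 255 were tested, 162 were called lower again (63.5%), 0 were called higher and 245 had the same sign. Read from the other side, the shared calls make up 40.3% of the higher and 27.1% of the lower safener calls that were tested in mock leaves. Among changes of at least 2-fold in mock leaves, 95 of 104 higher and 47 of 51 lower probe sets were called again. The 12 genes with the largest rises were all called again and so were 11 of the 12 with the largest losses, the exception being the lipid transfer gene AT5G05960 (log2 −0.50, adjusted p = 0.103). These counts come from a fit that holds both treatments, so each probe set shares a variance estimate between them. Fitting each comparison to its own 6 arrays lowered the shares called again. They were then 508 of 1048 higher (48.5%) and 163 of 285 lower probe sets (57.2%). Past 2-fold, 94 of 104 higher and 46 of 50 lower were called again. In these fits the shared calls make up 50.5% of the higher and 28.5% of the lower safener calls.

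Where the treatments were called apart, the difference was mostly more negative under safener. The lower probe sets past 2-fold had a median log2 difference of −2.09 under safener and −1.40 in mock leaves, and the higher ones 1.12 and 1.22. The difference between the 2 treatments was tested directly, as the difference under safener minus that in mock leaves. It was called for 68 of 14556 probe sets (0.467%), of which 62 were more negative under safener (0.426%) and 6 more positive (0.0412%). OCT5 was such a gene: its 4tga to Col0 difference was −3.88 under safener and −2.64 in mock leaves (log2 difference of −1.25 between treatments, adjusted p = 0.00142). AT3G26470 had −3.13 under safener and −1.27 in mock leaves (difference −1.86, adjusted p = 0.000232), and the auxin glucosyltransferase gene IAGLU −2.66 and −1.17 (difference −1.49, adjusted p = 0.00427). For AT4G13180, the largest loss, the 2 differences of −4.00 and −3.61 were not called apart (adjusted p = 0.656), and neither were those of UGT76B1, at −3.87 and −2.83 (adjusted p = 0.142), of GRX480, at −2.61 and −1.78 (adjusted p = 0.133), and of PDF1.2, at 2.39 and 3.39 (adjusted p = 0.501). Both AT1G09500 and AT3G04000, the reductases that were not called in mock leaves, were lower under safener (log2 −1.94 and −1.30), and for both the treatments were called apart (adjusted p = 0.00801 and 0.046, the second lost without any 1 of 11 of the 12 arrays, 4tga mock replicate 2 being the exception, with up to 0.154). The call of AT3G04000 was also lost with the replicate block. On the xenobiotic list, all 7 members tested under safener were lower, with a median log2 difference of −1.63. Over all probe sets tested under safener, 4.23% were called lower.

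**Figure D3:**
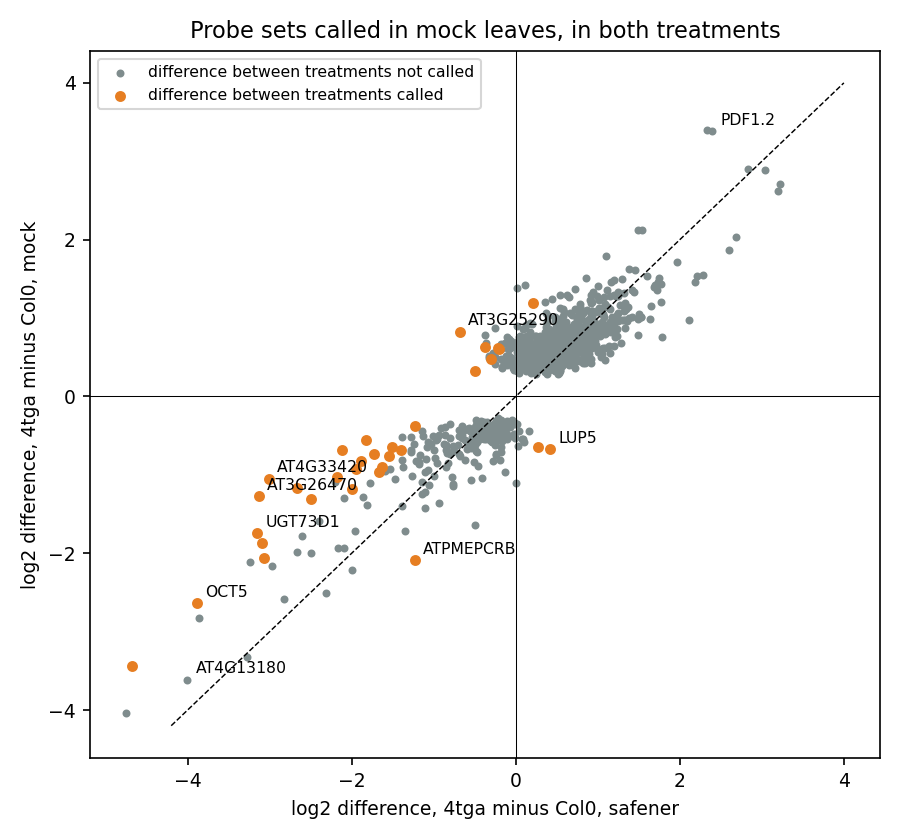
Log2 difference of 4tga minus Col0 under safener (horizontal axis) and in mock treated leaves (vertical axis). Each point is 1 probe set that was called in mock leaves and tested under safener. Points are orange where the difference between the treatments was called, and a dashed line marks where both are equal. Probe sets not called in mock leaves are not drawn. Most orange points lie to the left of the line, among them OCT5 at −3.88 under safener and −2.64 in mock leaves.

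The sid2-2 mutant gives levels of the same transcripts where salicylic acid synthesis is lost. Comparisons of 4tga and of sid2-2 with Col0 share the Col0 mock arrays, so the mutants were also set against each other. In mock leaves, 787 of 15340 probe sets were higher in 4tga than in sid2-2 (5.13%) and 916 lower (5.97%), together 11.1%. Of the 12 largest losses in 4tga, 11 could be tested against sid2-2, and 7 were lower in 4tga than in sid2-2. AT4G13180 averaged 48.7 ± 3.17 in 4tga, 820 ± 75.4 in sid2-2 and 600.4 ± 99.4 in Col0 (4tga minus sid2-2, log2 −4.07, adjusted p = 2.36e-13). OCT5 averaged 34.3 ± 3.70 in 4tga, 516 ± 32.2 in sid2-2 and 212 ± 8.31 in Col0 (log2 −3.92). AT4G01870, at 465 in 4tga, was at 1609 ± 89.5 in sid2-2. EXLB1, which is not among the 12, was at 42.1 in 4tga and 457 ± 37.8 in sid2-2.

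Of the 12 largest losses, 4 were not called apart between the mutants. UGT76B1 stood at 86.2 ± 20.2 in 4tga and 88.4 ± 38.8 in sid2-2 (log2 0.02, SE 0.20, adjusted p = 0.956). GRX480 averaged 66.9 ± 4.45 in 4tga and 94.2 ± 25.7 in sid2-2 (log2 −0.46, adjusted p = 0.0606), UGT73D1 39.6 ± 5.46 and 42.3 ± 2.49 (log2 −0.10, adjusted p = 0.795, n = 2 in sid2-2), and AT3G13610 232 ± 50.6 and 350.1 ± 191 (adjusted p = 0.209). AT3G28510 was listed on 0 of the sid2-2 mock arrays and could not be tested. Against Col0, sid2-2 was lower in UGT76B1 (log2 −2.85), GRX480 (−1.32), UGT73D1 (−1.64), ATPMEPCRB (−0.94), AT3G13610 (−0.91) and AT1G19960 (−0.54), in comparisons that use the same Col0 arrays, whereas AER, like AT4G13180 and AT4G01870, was lower in 4tga than in sid2-2 (log2 −3.12).

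Of the jasmonate and ethylene markers, PDF1.2 stood higher still in sid2-2. It reached 4868, 4955 and 5958 in sid2-2, above all 4tga arrays (4tga minus sid2-2, log2 −0.98, adjusted p = 0.03). PDF1.2b was also lower in 4tga than in sid2-2 (log2 −0.94, adjusted p = 0.0071), and so was the MATE transporter gene AT3G23550, at 1077 ± 194 in 4tga and 1798 ± 109 in sid2-2 (log2 −0.75, adjusted p = 0.000957). THI2.1 averaged 279 ± 70.2 in 4tga and 244 ± 56.2 in sid2-2 (adjusted p = 0.666), and AT3G28220 506 ± 69.8 and 497 ± 89.9 (adjusted p = 0.936). Of the 12 largest rises, 5 were higher in 4tga than in sid2-2 and 3 were lower. Against Col0, sid2-2 was higher by 4.37 in PDF1.2, 2.55 in AT3G23550, 1.94 in AT1G54020 and 1.37 in JAL23 on the log2 scale. The 5 that were higher in 4tga than in sid2-2 were AT1G54020 (log2 0.95), AT3G28500 (0.52), AT5G11930 (1.84), AT1G22060 (1.82) and AT5G40020 (0.99). OSM34 was higher in 4tga than in sid2-2 too, at 285 ± 88.1 and 89.8 ± 30.0 (log2 1.67, adjusted p = 4.85e-05).

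AT1G22060 lies 2 protein-coding genes before TGA3 on chromosome 1, and it was not the only raised gene there. A run of 18 tested genes between AT1G21550 and AT1G22060, 60 to 2 genes before TGA3, held 15 that were higher in 4tga and 0 that were lower. The bounds of this run were chosen after its values were seen, so its counts are a description and no test. The median log2 difference of the 18 was 0.93, which is 1.90-fold, and they ranged from −0.09 to 1.54. SECA2, a subunit of the chloroplast protein translocase, had a log2 difference of 1.29, AT1G21790 1.12 and AT1G21730 1.11. AT1G22040, 4 genes before TGA3, had 249.8, 232 and 252 in 4tga and 107, 125 and 124 in Col0 (log2 1.05, adjusted p = 3.11e-06). AT1G21580, AT1G21680 and AT1G21740 were the 3 members without a call (log2 0.35, −0.09 and 0.25). Of the run's calls within 50 genes of TGA3, AT1G21670 lost its own without 4tga replicate 1 (adjusted p = 0.0502). AT1G21920 lost its call after centring, with quantile normalization, with the replicate block and with only the 6 arrays compared. That call was also lost without Col0 replicate 1 or 3 or 4tga replicate 2 or 3 (adjusted p up to 0.193). The alternatives were not run for the calls of AT1G21550, AT1G21560, AT1G21590, AT1G21630 and SECA2.

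The rise along this run was even across arrays and present under safener. Taken as the median over the run's genes of the log2 ratio to the Col0 mock mean, the 4tga mock arrays stood at 0.92, 0.88 and 0.99, the 4tga safener arrays at 0.78, 0.91 and 0.83, and the Col0 mock arrays at −0.07, 0.01 and −0.00. Col0 safener arrays stood at −0.24, −0.02 and −0.05, and sid2-2 arrays of both treatments between −0.11 and 0.17. Under safener, 15 of the 18 genes were higher in 4tga and 0 lower, with a median of 0.89. In mock sid2-2 leaves, 2 were higher and 2 lower than in Col0 (17.3% and 5.37% of all probe sets, 22.7% together). The 18 tested genes among the 50 before the run had 1 higher call and a median of 0.04, and the 18 among the 50 after TGA3 had 3 higher calls and a median of 0.15. All 3 of those calls were fragile. AT1G22160 (log2 0.80, adjusted p = 0.0126) lost its call without Col0 replicate 2 or 3 or 4tga replicate 3 (up to 0.0731), AT1G22430 after centring and without Col0 replicate 1 or 2 or 4tga replicate 2 or 3 (up to 0.147), and AT1G22550 after centring and without any 1 of 5 arrays, Col0 replicate 1 being the exception (up to 0.134).

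Over all chromosomes, 7889 windows of 15 neighbouring tested genes were scanned. The highest median, 0.95, was that of AT1G21590 to AT1G22060, with 13 of 15 genes called, and the next separate window, AT1G72890 to AT1G73230, had a median of 0.33. The lowest median was −0.12, at AT3G27640 to AT3G28420. Around the other mutated genes no such run was seen. Within 10 genes of TGA6 on chromosome 3, 1 of 9 tested genes was called, the serine carboxypeptidase-like gene scpl16, at 30.7 ± 5.53 in 4tga and 59.5 ± 9.84 in Col0 (log2 −0.96, adjusted p = 0.00422). Within 10 genes of the neighbours TGA2 and TGA5 on chromosome 5, 0 of 5 were called by limma. These counts stand beside 6.96% called over all named genes.

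**Figure D4:**
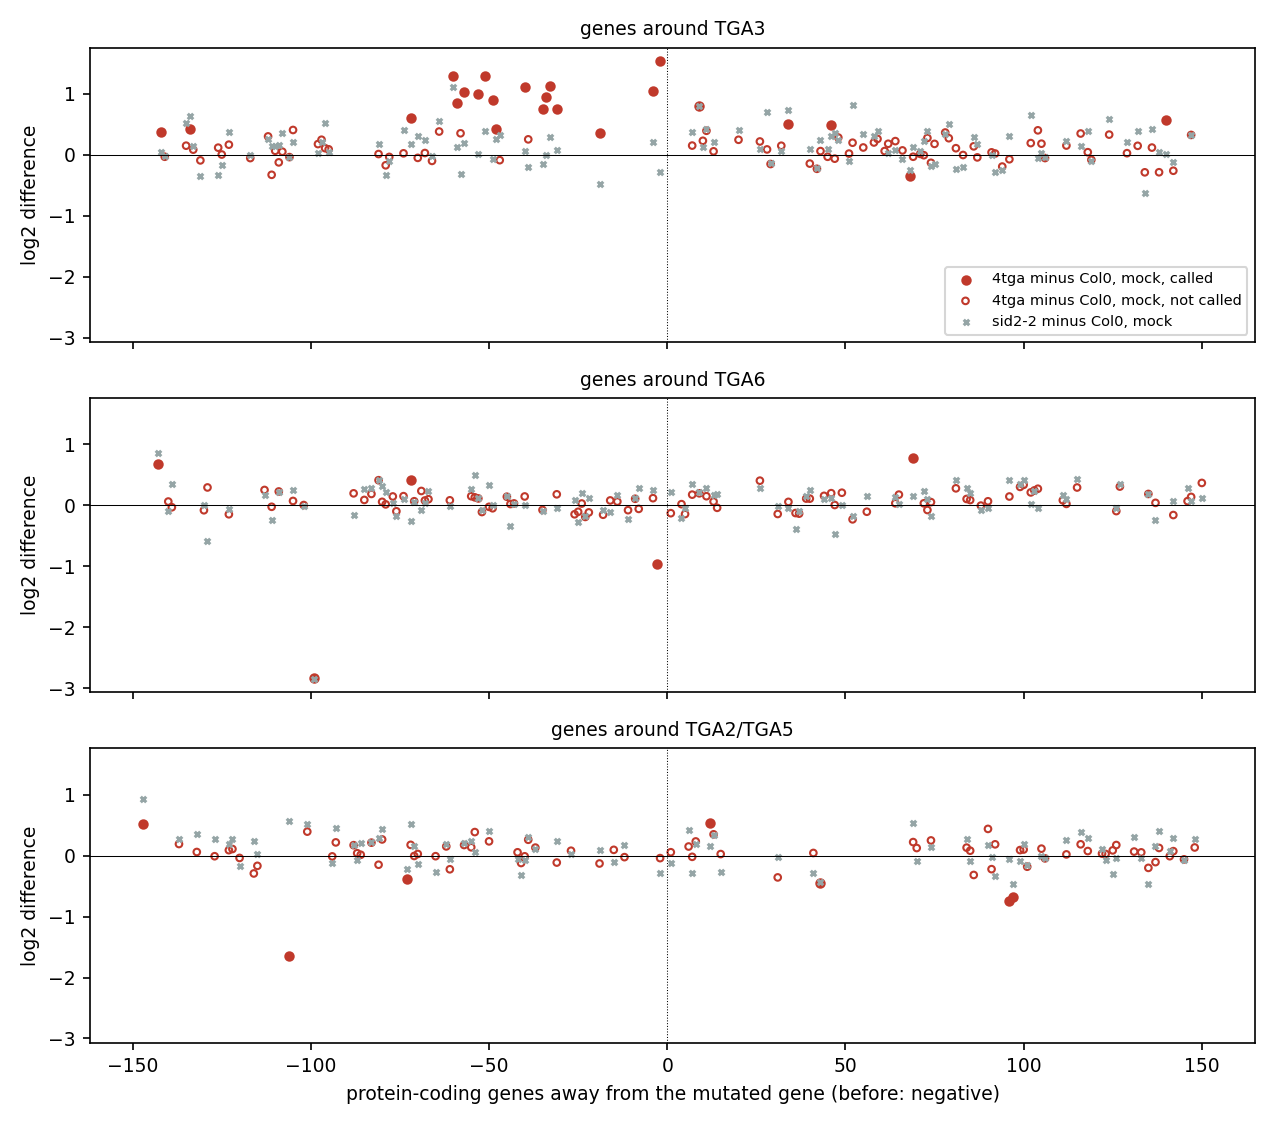
Log2 difference of 4tga minus Col0 in mock leaves for tested genes around TGA3, TGA6 and the TGA2 and TGA5 pair (1 panel each), against the number of protein-coding genes from the mutated gene, with filled red circles called, open circles not called, and grey crosses for sid2-2 minus Col0. The red circles gather before TGA3, where the run has a median of 0.93, and do not gather around TGA6 or TGA2 and TGA5.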

How the data were processed

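The values are intensities on a linear scale that the authors deposited as 1 table, 1 per probe set and array, for 18 ATH1 arrays. RMA is named, without a version, per the submitters' processing notes. RMA as usually run gives log2 values without blanks, whereas this table is linear, has a median of about 200 on each array and is blank in part, so the named method does not account for the table as it stands. How blanks were set is not given in the sources used here, and a blank is read only as no listed value. Of 22810 probe sets, 64 array controls were left out. The platform annotation names 1 gene for 13513 of the other 22746, several for 503 and none for 8730, and 13436 of the first matched a locus of TAIR10.1 in RefSeq, which gave the order of genes.

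Listed values were converted to log2 and blanks stayed missing. A probe set was tested where both groups had at least 2 listed values. Means of the 6 groups were fitted to all 18 arrays with limma 3.58.1 (lmFit and eBayes, R 4.3.3), p-values were adjusted by Benjamini-Hochberg over all probe sets tested, and the threshold was 0.05. The written design had taken the values as log2 without blanks. Precision is limited by having 3 arrays in a group.

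Genes named are the 12 with the largest called change in each direction among genes whose 3 arrays of 4tga lay wholly beyond the 3 of Col0, up to 4 per list of 38 lists (29 with a tested member), up to 5 listed in 1 group alone and up to 5 per direction of the difference between treatments, and called genes within 10 genes of a mutated gene. Others were chosen after their values were seen. The members, lists and rule were chosen with earlier results of these data known. Of several probe sets for a gene, the brightest on average stands for it. On simulated data built from these arrays, 55.2% of changes of 0.5, 95.5% of changes of 1 and 100% of changes of 2 (log2) were called. There were 6 false calls among 15018 probe sets in this comparison. The simulation changed 200 probe sets and gave each value independent noise without shifts of whole arrays. Its rates therefore need not hold for the measured arrays, whose counts moved with scaling and with the loss of single arrays. Alternatives were centring, quantile normalization, array weights, filters on level and on blanks, a variance trend, the replicate number as a block, only the arrays compared, and leaving out each array.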

Additional observations from a re-analysis of the deposited data

Results flagged for a closer look

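For 11 named genes the 4tga minus Col0 difference itself differed between treatments. Each was called in a limma test of the difference under safener minus that in mock leaves, and the values that follow are this log2 difference with its adjusted p. Groups of 3 arrays are too small for a test of single outlying arrays.

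AT4G33420 had −1.96 (adjusted p = 0.00389), with means under safener of 32.1 in 4tga and 261 in Col0 and in mock leaves of 17.7 and 37.6. AT3G26470 had −1.86 (0.000232), with 53.8 and 472 under safener and 61.5 and 148.5 in mock leaves. IAGLU had −1.49 (0.00427), with 82.9 and 535 under safener and 41.8 and 94.7 in mock leaves. In these 3 genes the 4tga mean under safener lay below both Col0 means, and the Col0 mean was higher under safener than under mock treatment. OCT5 had −1.25 (0.00142) and the Nod19-like gene AT5G61820 −0.74 (0.0321), and AT1G09500 had −1.59 (0.00801), with 70.1 in 4tga and 270.3 in Col0 under safener.

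AT3G25290 had −1.51 (0.00635) and was called in opposite directions: its means were 79.5 in 4tga and 129 in Col0 under safener (log2 −0.69, adjusted p = 0.0142) and 94.0 and 53.4 in mock leaves (log2 0.83). LUP5, of the lupeol synthase family, had 1.09 (0.0201), with 93.3 in 4tga and 68.5 in Col0 under safener (log2 0.42, adjusted p = 0.0617) and 122 and 196 in mock leaves (log2 −0.67). ATPMEPCRB had 0.85 (0.0372), UGT73D1 −1.41 (0.0259) and AT3G04000 −0.99 (0.046). The calls of LUP5, ATPMEPCRB, UGT73D1, AT3G04000 and AT5G61820 were lost without single arrays, 4, 11, 6, 11 and 9 of the 12, with adjusted p up to 0.0656, 0.121, 0.0817, 0.154 and 0.12. ATPMEPCRB also lost its call with quantile normalization, and AT3G04000 with the replicate block. The other 6 calls held under each alternative that could be run.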

How the results depend on the processing

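Counts of probe sets, higher then lower in 4tga, moved with the scaling, the weighting of arrays and the loss of single arrays. With arrays centred, the lower count was 435 in mock leaves and 970 under safener. With array weights, the counts were 2154 and 645 in mock leaves, 2931 and 1670 under safener, 92 and 341 for the difference between treatments, and 1541 and 1860 against sid2-2. Restricted to the arrays of the groups compared, 515 were lower in 4tga than in sid2-2. When each array was dropped in turn, mock leaves had 484 to 860 higher and 148 to 268 lower calls, with 679 to 1581 and 425 to 556 under safener, 0 to 6 and 27 to 65 for the difference between treatments, and 478 to 810 and 486 to 1069 against sid2-2. Other settings kept the mock counts within 1.5 times: 1089 and 297 with only the 6 arrays, 967 and 274 with quantile normalization, 881 and 262 with a value on every array, 923 and 275 with a variance trend, and 794 and 260 with a mean log2 of at least 6. The causes were not tested.

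Same-numbered replicates were not taken as pairs. Their deviations from the group means correlated at −0.24, −0.33 and −0.05, which are too few values to decide whether the samples were paired. With the replicate number as a block, 844 were higher and 238 lower in mock leaves.

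Of 70 called genes put through up to 14 alternatives, 49 kept call and direction under each, 21 lost the call under at least 1, and 0 reversed. Not all of the 70 are named here, and some called genes named here, among them SECA2, psbI and rpl32, are not in the 70. Planned counts of TGACG in promoters were not run, since no promoter sequences were at hand. Blanks limit the dim genes: a change from or to an unlisted level has no fold change. Genes without a name in the annotation are counted and not described, which includes the mutated ones.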

Other observations

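Genes encoded in the plastid genome had a higher median difference than all probe sets but no larger share of calls. All 69 named ones were tested in mock leaves, and 2 were higher and 0 lower (1 and 0 after centring), where 6.04% of all probe sets were called higher. Their median log2 difference was 0.36, or 0.29 after centring, against 0.07 over all probe sets. The photosystem II gene psbI averaged 1239 ± 171 in 4tga and 769 ± 37.9 in Col0 (log2 0.68, adjusted p = 0.0205, and 0.0405 after centring). The ribosomal protein gene rpl32 averaged 1420 ± 49.8 in 4tga and 931 ± 99.9 in Col0 (log2 0.61, adjusted p = 0.0337), and lost its call after centring (0.0551). These transcripts share 1 genome and the same labelling reaction on each array, so their common shift was not tested as 69 separate values.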
